A study of Caenorhabditis elegans with 2 samples.

Results

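The 8 genes cct-1 to cct-8 encode the subunits of the cytosolic chaperonin CCT of Caenorhabditis elegans, and binding of the transcription factor subunit NFYB-1 was described at each of them. The members were taken by name, 8 of the 19973 protein-coding genes annotated on the 6 nuclear chromosomes. A region was counted at a member where its summit lay from 1000 bp upstream of the annotated start to the gene end, called the gene window here. The assay was ChIP-seq, in which DNA bound by a tagged protein is pulled down with an antibody, here against GFP, and sequenced. There was 1 group of 2 biological replicates. Both were whole young adults of strain RW12190, collected at 65 hours. This strain carries the allele st12190 on chromosome II, a CRISPR insertion that appends the tag TY1::EGFP::3xFLAG to nfyb-1 itself. The worms had been bleached and starved as L1 larvae to bring them to the same stage. No other genotype, stage or treatment was measured, so no conditions were compared. All tissues were pooled in each sample, so strong binding in few cells and weak binding in many cannot be told apart. The number of reads per replicate is unknown.

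CCT, also called TRiC, is an ATP-driven folding machine of the cytosol. Its 8 different subunits sit at fixed places in stacked rings and enclose unfolded proteins, among them actin and tubulin, which prefoldin hands over to it. NF-Y binds the CCAAT box through 3 different subunits, and nfyb-1 encodes the B subunit. As each ring needs every subunit, the question asked of these data was whether the 8 genes are bound alike.

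The members lie on chromosomes II, III, IV and V of ce11. On chromosome II, cct-1 (WBGene00000377) spans II:8185443-8187601 on the plus strand, cct-2 (WBGene00000378) spans II:8927741-8929815 on the plus strand, cct-3 (WBGene00018782) spans II:2233540-2243539 on the plus strand, and cct-4 (WBGene00000379) spans II:8283667-8285711 on the plus strand. On chromosome III, cct-5 (WBGene00000380) spans III:4499188-4508114 on the minus strand, and cct-6 (WBGene00000381) spans III:5853530-5855687 on the minus strand. On chromosome V, cct-7 (WBGene00020391) spans V:1872246-1875505 on the plus strand. On chromosome IV, cct-8 (WBGene00021934) spans IV:1087108-1093920 on the minus strand.

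The 8 genes did not pass the threshold alike. In the conservative list, the stricter of the whole-series thresholded lists by its name, 4 of the 8 genes had a summit in the gene window, namely cct-8, cct-1, cct-5 and cct-7. A summit is the highest point of a region. Over all protein-coding genes the share with a summit in the gene window was 13.7%. The gene window grows with the gene, so a fixed promoter window was also used, from 500 bp upstream to 200 bp downstream of a start. The same 4 of 8 genes had a summit there, against 7.40% of all protein-coding genes. No summit of the list lay in the gene windows of cct-2, cct-3, cct-4 and cct-6. The 4 genes with a conservative summit, called bound here, held 6 regions in all, 4 upstream of the start and 2 in introns of cct-5.

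The strongest regions, at cct-8 and cct-1, were narrow, and their sequences are shown because they had the highest signals at this gene family. The first lay at IV:1094231-1094484 on ce11, within the space between cct-8 and Y55F3AR.2. The other lay at II:8185138-8185285, within the space between cct-1 and mig-5. Both are printed whole, on the strand of the chaperonin gene. Capitals mark every match to CGCGC and to GAANNTTC, a pairing of heat shock element units. CCAAT and TTCNNGAA were also searched on both strands and had no match in these stretches.

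cct-8 region: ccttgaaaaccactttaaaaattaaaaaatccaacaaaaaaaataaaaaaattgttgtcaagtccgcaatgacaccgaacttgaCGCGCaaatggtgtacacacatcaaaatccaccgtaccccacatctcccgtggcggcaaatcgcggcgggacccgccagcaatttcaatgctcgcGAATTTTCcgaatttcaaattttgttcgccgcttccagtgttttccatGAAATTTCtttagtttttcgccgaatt
cct-1 region: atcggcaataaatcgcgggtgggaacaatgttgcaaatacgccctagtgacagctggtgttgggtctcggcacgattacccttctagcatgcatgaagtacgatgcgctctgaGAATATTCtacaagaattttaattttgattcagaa

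Neither sequence held CCAAT, the box that NF-Y is known for. The weaker regions upstream of cct-5 and cct-7 had the list's usual width, so 201 bp centred on the summit are shown for comparison. They come from III:4508484-4508684 and V:1871896-1872096, again on the strand of the chaperonin gene. Capitals here mark the same patterns, with CCAAT and TTCNNGAA now present.

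cct-5 summit: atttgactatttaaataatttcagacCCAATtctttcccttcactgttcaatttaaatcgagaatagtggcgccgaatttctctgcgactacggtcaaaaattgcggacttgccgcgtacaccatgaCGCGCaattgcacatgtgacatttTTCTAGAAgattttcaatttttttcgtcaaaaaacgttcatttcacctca
cct-7 summit: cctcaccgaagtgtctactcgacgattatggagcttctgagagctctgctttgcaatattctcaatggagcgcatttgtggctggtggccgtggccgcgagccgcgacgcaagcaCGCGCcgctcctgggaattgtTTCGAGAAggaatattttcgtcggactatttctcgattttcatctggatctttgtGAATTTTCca

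The region at cct-8, the gene of the theta subunit, was the strongest. Raising this subunit in somatic cells of C. elegans has been reported to increase assembly of the chaperonin. The deposited signal was 733 in the conservative list, which was made from both replicates. It was 343 in replicate 1 and 389 in replicate 2, a mean of 366 ± 32.3 (SD of unscaled signals, n = 2). The region took rank 54 of 3890 by signal in the conservative list. By its strongest ranked region in the promoter window, cct-8 stood at rank 38 in replicate 1 and at rank 39 in replicate 2 among the 19973 genes. Its summits in replicates 1 and 2 lay 5 and 6 bp from that of the conservative list, so both replicates placed it at the same spot.

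The region at cct-1, the gene of the alpha subunit, came next. Its signal was 405 in the conservative list, 193.26 in replicate 1 and 193.15 in replicate 2 (mean 193 ± 0.0803, SD of unscaled signals, n = 2). It took rank 178 of 3890 in the conservative list. Among genes ranked by promoter signal, cct-1 stood at rank 103 in replicate 1 and at rank 152 in replicate 2. The summit of replicate 1 lay 25 bp from that of the conservative list, and that of replicate 2 fell on the same base. The signal at cct-8 was 1.81 times that at cct-1 in the conservative list, 1.78 times in replicate 1 and 2.01 times in replicate 2.

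The upstream region of cct-5, the gene of the epsilon subunit, was of middling strength, at III:4508396-4508771. Its signal was 125 in the conservative list, at rank 1979 of 3890, near the list's median of 126. In the ranked lists of single replicates it was 41.3 in replicate 1 and 76.1 in replicate 2 (mean 58.7 ± 24.6, SD of unscaled signals, n = 2). Neither value was in the thresholded list of its replicate. The score is a scaled irreproducible discovery rate (IDR, how poorly a region's rank repeats between calls). It runs up to 1000 for the most repeatable regions. Here it was 923 in the conservative list, 360 in replicate 1 and 206 in replicate 2. The calls that each list compared are not named, so scores of different lists need not measure the same repeatability. The lowest score in the conservative list was 830.

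The region upstream of cct-7, the gene of the eta subunit, was weaker still, at V:1871808-1872183. Its signal was 98.1 in the conservative list, at rank 3153 of 3890. It was 44.7 in replicate 1 and 61.4 in replicate 2 (mean 53.0 ± 11.8, SD of unscaled signals, n = 2), and neither replicate's thresholded list held it. From cct-8 to cct-7, the strongest region per bound gene spanned 7.47-fold in the conservative list. The same regions spanned 8.32-fold in replicate 1, where cct-5 was lowest, and 6.34-fold in replicate 2, where cct-7 was lowest.

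Both further regions at cct-5 lay far downstream of the start, within introns. One, at III:4502820-4503195, had a signal of 122 in the conservative list, 61.2 in replicate 1 and 64.1 in replicate 2. Of the 4 conservative regions other than those at cct-8 and cct-1, it alone passed the threshold in a replicate, with a score of 843 in replicate 1 against 80 in replicate 2. The other, at III:4503448-4503823, had signals of 97.7 in the conservative list, 39.4 in replicate 1 and 61.2 in replicate 2. The nearest annotated start to the first was that of atf-7, at 3963 bp, and to the other that of cct-5, at 4478 bp. At 8927 bp, cct-5 is longer than 93.7% of protein-coding genes, so its gene window covers far more sequence than those of most members.

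**Figure D1:**
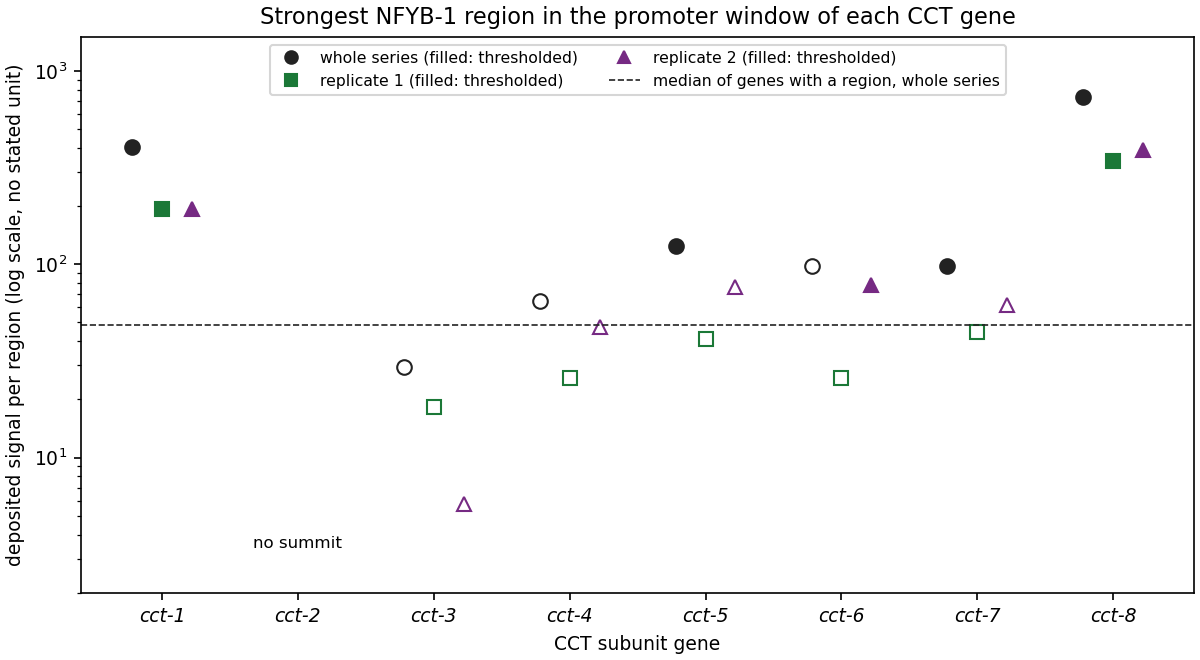
Deposited signal (log scale, no stated unit) of the strongest ranked region in the promoter window of each of the 8 CCT genes, for the whole series (circles), replicate 1 (squares) and replicate 2 (triangles). Filled points passed the threshold of that list and the dashed line is the median of 48.4 over genes with a region in the whole-series ranked list. Only cct-1 and cct-8 are filled in every list, and cct-2 has no point.

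The threshold was met in every list by cct-8 and cct-1 alone. In replicate 1, 3 of the 8 genes had a thresholded summit in the gene window (cct-1, cct-5 and cct-8), against 6.73% of all genes. In replicate 2, 3 of 8 did (cct-1, cct-6 and cct-8), against 8.94%. In the promoter window these were 2 of 8 in replicate 1 (cct-1 and cct-8), against 3.66% of all genes, and 3 of 8 in replicate 2 (cct-1, cct-6 and cct-8), against 5.10%. The other whole-series thresholded list added cct-6, with 5 of 8 genes in the gene window against 14.0% of all genes. In its promoter window the same 5 of 8 were found, against 7.56%. Of the 6 conservative regions at members, those at cct-8 and cct-1 overlapped thresholded regions of both replicates, as did 33.2% of all conservative regions.

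Among the 5 genes with a thresholded region in some list, the replicates' signals lay farthest apart at cct-6, the gene of the zeta subunit. Its upstream region, at III:5855806-5856181, had signals of 25.9 in replicate 1 and 77.7 in replicate 2. Only replicate 2 passed its threshold, with a score of 845, against 80 in replicate 1. In the whole-series ranked list behind the conservative one its signal was 97.9, close to the 98.1 of cct-7, but its score was 257. In the other whole-series thresholded list the same region had the same signal and a score of 841. Replicate 2 also ran higher in general, by a median of 0.277 on the log2 scale at regions that both thresholded lists held.

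The other 3 genes stayed below the threshold in all 4 thresholded lists. In the whole-series ranked list, which also holds weak regions, 51.6% of all genes had a summit in the promoter window, as did 7 of the 8 members. In the gene window it was 71.2% of all genes and 8 of the 8 members. At cct-4, the gene of the delta subunit, the strongest promoter signal was 64.7 in the whole series, 25.7 in replicate 1 and 47.3 in replicate 2. The summits differed, lying 75 bp downstream of the start in the whole series and in replicate 2 but upstream of it in replicate 1. In the gene window of cct-4 a stronger region lay 774 bp downstream of the start, with a signal of 95.0 in the whole series, close to the 98.1 of cct-7, but a score of 117. At cct-3, the gene of the gamma subunit, the strongest promoter signal was 29.3 in the whole series, 18.3 in replicate 1 and 5.73 in replicate 2. The median over genes with a ranked promoter region was 48.4 in the whole series, 29.3 in replicate 1 and 29.4 in replicate 2, so cct-3 lay below it in each. No ranked summit of the whole series or of either replicate lay in the promoter window of cct-2, the gene of the beta subunit. Its strongest summit in the gene window was 218 bp downstream of the start, with a signal of 59.7 in the whole series. In replicate 2 it was 203 bp downstream, with a signal of 39.1, so both lay just past the 200 bp edge of the promoter window. In replicate 1 it was 1556 bp downstream, with a signal of 27.1.

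Some regions lay just past the ends of members and so were not counted. A conservative summit lay 64 bp beyond the end of cct-2, with a signal of 115, and 38 bp from the start of mrpl-50, a mitochondrial ribosomal protein gene on the same strand. Another lay 168 bp beyond the end of cct-6, with a signal of 134, and 93 bp from the start of ddx-23, a DEAD-box helicase gene. A summit 201 bp beyond the end of cct-7 had a signal of 127, with the nearest start of another coding gene 3899 bp away. This summit lay within zig-11, a gene on the opposite strand that overlaps the end of cct-7. Of the counted summits, the farthest upstream was the one 470 bp before cct-5. Reaching 2000 bp upstream added none.

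**Figure D2:**
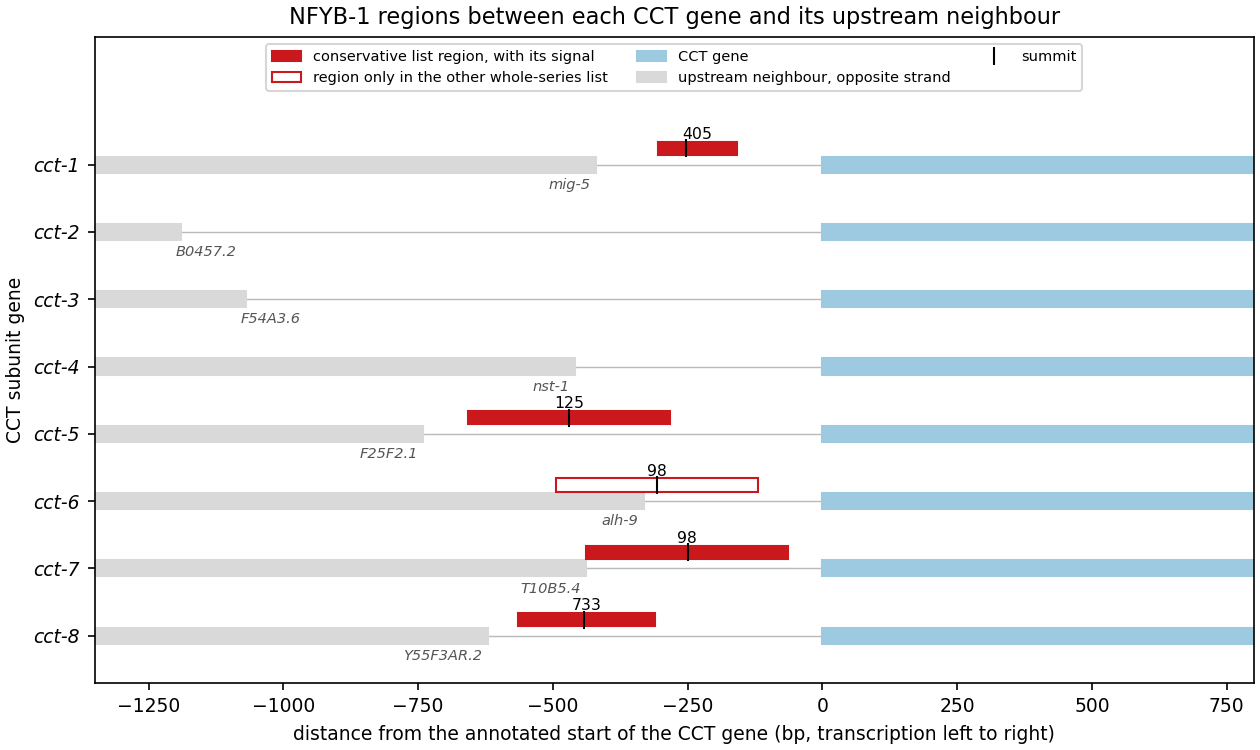
Position of the regions relative to the annotated start of each CCT gene (bp), with the upstream neighbour in grey, the CCT gene in blue, conservative regions as filled red bars with their signal, a region found only in the other whole-series list as an open bar, and summits as ticks. All 8 genes face a neighbour on the opposite strand, and the 4 filled upstream regions have their summits between the starts, 442, 254, 470 and 250 bp upstream of cct-8, cct-1, cct-5 and cct-7.

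Every upstream region lay between a CCT gene and a neighbour that runs the other way. All 8 of the 8 CCT genes had an upstream neighbour on the opposite strand, against 45.4% of protein-coding genes with an upstream neighbour. The gaps ran from 330 bp between cct-6 and alh-9 to 1189 bp between cct-2 and B0457.2. The bound genes had gaps of 620 bp (cct-8), 419 bp (cct-1), 740 bp (cct-5) and 438 bp (cct-7). At cct-4, below the threshold, there was a gap of 458 bp to nst-1, within the range of the bound genes.

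In each of the 4 gaps with a region, the neighbour's start was nearer to the summit than the CCT start. At cct-8 the CCT start was 442 bp away and the start of Y55F3AR.2 was 179 bp away, a gene that RefSeq annotates as coding for a thioredoxin domain protein. At cct-1 the CCT start was 254 bp away and a start of mig-5 166 bp, a Dishevelled gene of Wnt signalling. At cct-5 the distances were 470 bp to the CCT start and 271 bp to that of F25F2.1, a protein kinase domain gene. At cct-7 they were 250 bp to the CCT start and 189 bp to that of T10B5.4. An annotated non-coding RNA, T10B5.13, starts 16 bp from that summit. At cct-6, whose region was outside the conservative list, the summit lay 307 bp from the CCT start and 24 bp from that of alh-9, an aldehyde dehydrogenase gene. Each of these summits also fell within the neighbour's promoter window, so the deposited regions do not tell which gene, or whether both, is served.

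Distances from summits were counted from annotated starts. In C. elegans many messenger RNAs have their first bases cut off and replaced by a spliced leader at a splice acceptor that ends in CAG, and the annotated start is then that acceptor. The 20 bases before a start of each CCT gene, with the final CAG in capitals, are shown because all 8 end the same way.

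cct-1 start: ttaatacggttgtgtttCAG
cct-2 start: tttcatgtttcgtatttCAG
cct-3 start: aaattcccccaaatttcCAG
cct-4 start: catcataatttaatttgCAG
cct-5 start: taacatgctaatattttCAG
cct-6 start: agttgaattcttgttttCAG
cct-7 start: aattaataattcaaattCAG
cct-8 start: taaaatctaataatttgCAG

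All 8 of the 8 genes had CAG directly before the annotated start of a coding transcript, against 29.5% of protein-coding genes. Of their 8 upstream neighbours, 2 did, namely mig-5 and alh-9. The start concerned was II:8185021 for mig-5 and III:5857209 for alh-9, in neither case the neighbour's start nearest to the summit. The 8 stretches lie at II:8185423-8185442 (cct-1), II:8927721-8927740 (cct-2), II:2233520-2233539 (cct-3), II:8283648-8283667 (cct-4), III:4508115-4508134 (cct-5), III:5855688-5855707 (cct-6), V:1872226-1872245 (cct-7) and IV:1093921-1093940 (cct-8). For cct-4 the start used was II:8283668, not its outermost start at II:8283667, which is itself the last base of the stretch. Where transcription of the CCT genes starts was not tested here.

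**Figure D3:**
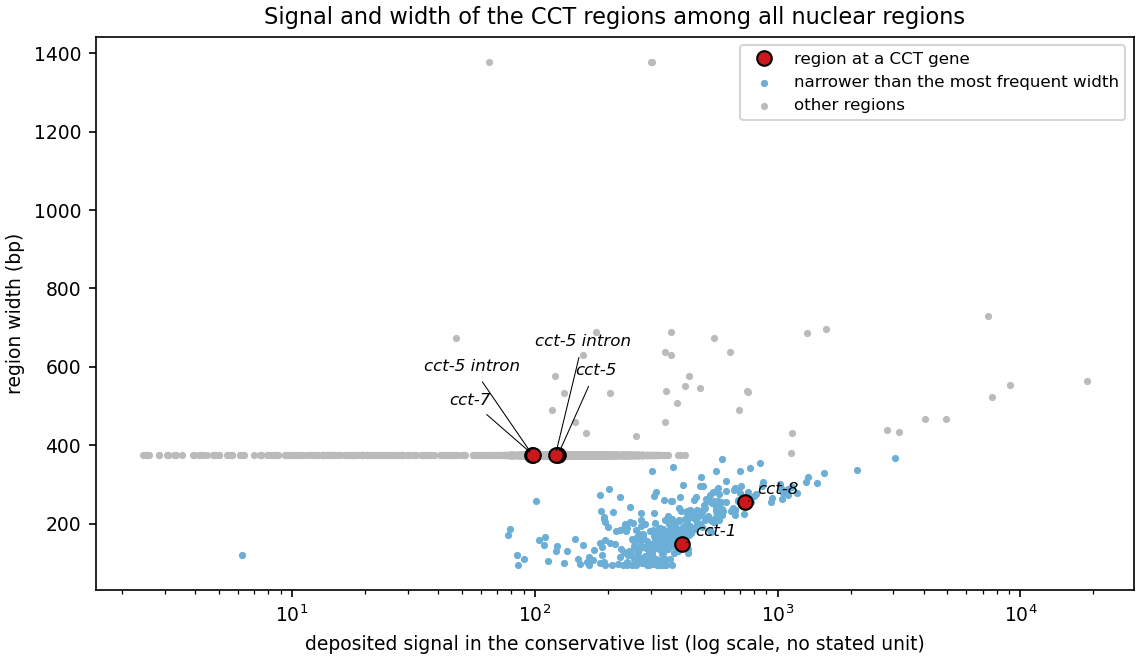
Width (bp) against deposited signal (log scale, no stated unit) of all 3879 nuclear regions of the conservative list, with the 6 regions at CCT genes in red, regions narrower than 376 bp in blue and all others in grey. The regions at cct-8 (254 bp) and cct-1 (148 bp) lie among the narrow strong regions, and the other 4 lie on the line at 376 bp.

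Width set cct-8 and cct-1 apart from the other members as signal did. Their regions were 254 and 148 bp wide in the conservative list, while the other 4 were 376 bp wide, the width of 89.4% of nuclear regions. Only 9.59% of nuclear regions were narrower than 376 bp. Such narrow regions had a median signal of 362, against 120 for regions of 376 bp, so width and signal are not separate observations. The replicates showed the same contrast. At cct-8 the region was 204 bp wide in replicate 1 and 221 bp in replicate 2, and at cct-1 it was 92 bp in replicate 1 and 108 bp in replicate 2. At cct-5 and cct-7 the regions had the most frequent width of each replicate, 330 bp in replicate 1 and 350 bp in replicate 2.

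CCAAT lay within 100 bp of the summit at 1 of the 6 member regions, against 36.9% of the 3879 nuclear regions of the conservative list. The match was upstream of cct-5, 72 bp from the summit. The nearest CCAAT lay 195 bp from the summit at cct-8, 139 bp at cct-1 and 270 bp at cct-7. The longer pattern RRCCAATSR, where R is A or G and S is C or G, was at 0 of the 6 regions, against 8.38% of nuclear regions. In the 500 bp before the start, 6 of the 8 genes held CCAAT, against 64.2% of protein-coding genes. The genes without it there were cct-4 and cct-7, of which cct-7 was bound, and 0 of the 8 held RRCCAATSR, against 4.22% of protein-coding genes. A missing match says only that these letters were not in these windows.

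Other short patterns were counted in the same windows. CGCGC lay within 100 bp of the summits upstream of cct-8, cct-5 and cct-7, 3 of the 6 regions, against 25.3% of nuclear regions. GAANNTTC lay within 100 bp at 3 of the 6 (cct-8, cct-1 and cct-7), against 10.4%, and TTCNNGAA at 2 of the 6 (cct-5 and cct-7), against 10.5%. Both are arrangements of the GAA and TTC units that heat shock factor recognises. Each of the 4 upstream regions held at least 1 of these arrangements within 100 bp of the summit, and neither intron region did. The share of nuclear regions with either arrangement was not counted, so this split has no background beside it. In the 500 bp before the start GAANNTTC was at 5 of the 8 genes, against 29.8% of protein-coding genes, and TTCNNGAA was at 6 of the 8, against 29.1%. CGCGC was there at 5 of the 8, against 21.9%, GATAA at 2 of the 8, against 74.4%, and CACGTG at 0 of the 8, against 8.61%. Within 100 bp of the summits GATAA was at 2 of the 6 regions, against 31.4%, and the E-box CACGTG at 0 of 6, against 6.52%. With 6 regions these shares are coarse, and a match is not evidence that a factor binds.

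The GC content within 100 bp of the summit ran from 34.8% at one intron region of cct-5 to 50.7% upstream of cct-7. It was 44.8% at cct-8 and 38.8% at cct-1, against a mean of 43.9% over nuclear regions. Over the whole regions printed above the order turned, with 41.7% at cct-8 and 43.9% at cct-1.

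Genes of the same folding pathway were bound unevenly as well. Prefoldin, which delivers unfolded actin and tubulin to CCT, had 3 of 6 subunit genes with a conservative summit in the promoter window. These were pfd-1 (signal 381), pfd-3 (210) and pfd-6 (103). Of 15 tubulin genes listed by name, which may not be the whole family, 3 had one, namely tba-2 (736), tbb-1 (279) and tba-1 (182). Of the actin genes, 3 of 5 had one, namely act-4 (507), act-2 (180) and act-3 (85.0). For the CCT genes the count was 4 of 8, and for all protein-coding genes the share was the 7.40% given above. In both replicates' thresholded lists the promoter was bound at cct-8 and cct-1, and likewise at pfd-1, pfd-3, tba-2, tbb-1 and act-4. Promoters called in both lists were not counted over all protein-coding genes, so these names have no matching background. That figure cannot exceed the 3.66% found with the thresholded list of replicate 1.

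The gene whose promoter region was most like that of cct-8 in signal was tba-2, an alpha-tubulin gene. Likeness was the distance over 3 values, the log10 signals of the conservative list and of both replicates. The signals of tba-2 were 736 in the conservative list, 345 in replicate 1 and 402 in replicate 2, at a distance of 0.0142. The next was eel-1, a ubiquitin ligase gene, with 702, 347 and 406, at a distance of 0.0270. With 3 values from 2 samples, such likeness is a matter of rank only.

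**Figure D4:**
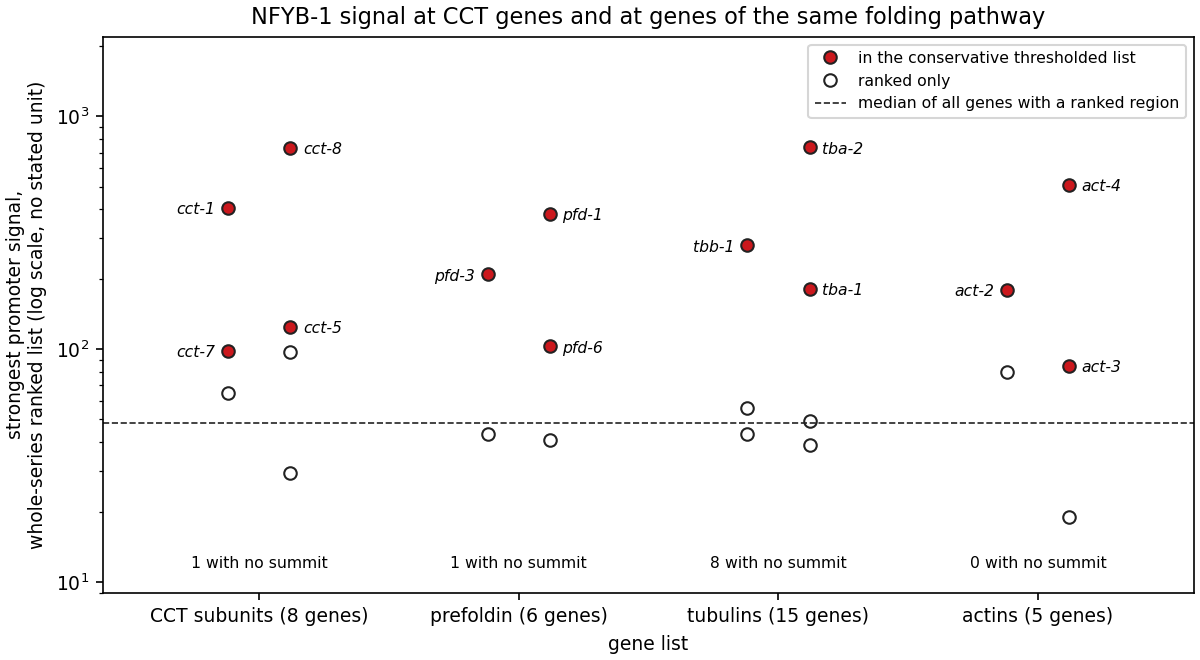
Signal (log scale, no stated unit) of the strongest whole-series ranked region in the promoter window of the CCT, prefoldin, tubulin and actin genes, one point per gene, red where the conservative thresholded list holds a summit there. The highest points are cct-8 at 733, pfd-1 at 381, tba-2 at 736 and act-4 at 507, each list also has genes below the median of 48.4 (dashed), and 8 of the 15 listed tubulin genes have no ranked summit.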

How the data were processed

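The labels and description files place the regions on ce11, the assembly also called WBcel235. Which aligner and which caller made them was not given in the sources used here. Per the description files, the authors deposited ranked and thresholded region lists per replicate and for the whole series, with the whole-series lists made from the alignments of both replicates. The deposited signal is the caller's value per region, on a scale that is not stated, and was used only within a list or beside the other replicate. The deposited score is the scaled global IDR, and the deposited −log10 values are those of the global IDR. In the whole-series ranked lists, 16 columns hold the calls that were compared, with no header to name them, and were not used.

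Starts came from coding transcripts of Ensembl release 115, sequence and product names from RefSeq, both for WBcel235. A replicate's value at a region is that of the overlapping region in its ranked list with the nearest summit. Coordinates are 1-based. Assignment and motif search were tested on simulated regions with known answers (Python 3.11.15, pandas 2.3.3). No control library was used here. No test was run: there is 1 group, and intervals would need the unknown depth. Members, gene lists and motifs were chosen with earlier results of these data known. Genes named are the members, their neighbours, the pathway lists with a summit in the promoter, and the 2 genes most like the strongest member. Alternatives were other lists, IDR 0.001, and other windows, overlap rules and motif reaches.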

Additional observations from a re-analysis of the deposited data

How the results depend on the processing

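Requiring both replicates, or a global IDR of 0.001, left 2 genes (cct-1 and cct-8) in the gene window and 2 in the promoter window. The span of signal among bound genes was then 1.81-fold, and 0 regions held CCAAT. Each replicate's own list alone gave 2 to 3 genes in the promoter window and 0 to 1 regions with CCAAT. Over the gene window the span was 5.61-fold in replicate 1, where an intron region of cct-5 was lowest. In replicate 2 it was 5.00-fold, where cct-6 was lowest. The promoter genes of replicate 1, cct-8 and cct-1, spanned 1.78-fold. A promoter from 250 bp upstream to 100 bp downstream kept 1 gene, cct-7, whose summit lies exactly at its upstream edge. CCAAT was found at 2 regions in the other whole-series list, at 2 where any overlap with the gene window counted, at 2 over whole regions and at 0 within 50 bp of the summit. In the 9 alternatives tried, no bound member had its own start nearest to its strongest region, and in the 10 tried RRCCAATSR was at 0 regions. Counting any overlap of a region with the gene window gave 6 genes, adding cct-2 and cct-6. The regions that added them had summits past the gene ends, 64 bp beyond cct-2 and 168 bp beyond cct-6. The upstream region of cct-6 was not among them. In all, 35 of 52 alternatives stayed within 1.5 times the count, or within the replicates' SD of 1.4 for the span. These 35 include 9 for the nearest start and 10 for RRCCAATSR, both at 0 throughout. Some of these were bound to stay at 0. For RRCCAATSR, requiring both replicates, IDR 0.001, 500 bp upstream or a 50 bp reach searched no further sequence. For the nearest start, counting starts of all annotated genes could only add nearer ones. Upstream reaches of 500 and 2000 bp returned the same 6 regions, so no result differed under them. The gene-window count stayed in 6, with those 6 genes at the very limit, and moved in 2. The promoter count stayed in 3 and moved in 4, the span in 4 and 4, and the CCAAT count in 3 and 7. No paired analysis was possible because both samples belong to 1 group. The 2 replicates and unknown depth limit what can be said of the weak regions, and a gene below the threshold is not shown to be unbound.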

Other observations

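The upstream regions of cct-8 and cct-5 shared a run of 12 bases, on opposite strands relative to the genes, the longest shared by any of the 4 upstream regions in a search made after the sequences were seen. The run, read on the strand of cct-5 on chromosome III, was ATTGCGGACTTG. It lay within 100 bp of the summit at 6 of the 3879 nuclear regions (0.155%) and at 0 of the windows of the same length centred 500 bp to either side. The run occurred at 21 places in the nuclear genome, and 6 of them (28.6%) were inside conservative regions, which cover 1.35% of it. Of these 6, 2 are the regions that supplied the run. At the other 4, the nearest gene starts were those of rpl-5 (signal 136), npp-19 (108), mcm-4 (147) and Y116F11B.13 (109). These starts lay 363, 199, 160 and 2063 bp from the run. The 2 source regions hold the run by construction, so the counts and shares given here do not measure enrichment. The centre of the run lay 5 bp from the summit at cct-5 and 59 bp from it at cct-8. Whether the run bears on binding was not tested.

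At the far end of cct-8, a region at IV:1086977-1087352 was in the other whole-series thresholded list with a signal of 85.1, and not in the conservative one. Its summit lay in the annotated 3′ UTR of cct-8 and 152 bp from the start of csn-4, a COP9 signalosome gene. The signal was 53.6 in replicate 1 and 33.1 in replicate 2, below the threshold in each.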
